A study of Mus musculus with 12 samples.

Results

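Messages pulled down with tagged astrocyte ribosomes were compared with the input RNA of the same preparation, once in a synaptoneurosome fraction and once in whole tissue, and the quantity described here is the difference between both enrichments. All 12 of the 12 libraries enter it, in 4 groups of 3. Whole tissue gave the cortex input and cortex TRAP libraries, and the fraction gave the synaptoneurosome input and PAP TRAP libraries, where PAP stands for peripheral astrocyte process. Per gene, the difference is PAP TRAP over synaptoneurosome input minus cortex TRAP over cortex input, on a log2 scale, and it is called the interaction below. It could be tested for 13364 of the 41388 gene identifiers in the count files. Every group came from mice of the C57/Bl6 strain with the transgene Aldh1L1::RPL10a-eGFP (Aldh1l1 bacTRAP), taken on postnatal day 21, and all 4 groups share the labelled treatment with cycloheximide at 1 ug/mL, which holds ribosomes on their messages, and TTX at 1 mM, which blocks sodium channels. Cortex and hippocampus were homogenized and the synaptoneurosome layer was taken from a sucrose gradient. The labels give the cortex samples the same extraction text, so how those samples were handled before the pull-down rests on their source names.

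Translating ribosome affinity purification (TRAP) uses a fluorescent tag on the ribosomal protein Rpl10a and antibodies against the tag to collect ribosomes with their bound messages. The Aldh1l1 promoter drives the tag in astrocytes, so the promoter, not a check of each cell, defines which ribosomes carry it. RNA from untagged cells can still be carried along in a pull-down. Synaptoneurosomes are resealed fragments of synapses together with the fine astrocyte processes that wrap them. Astrocyte cell bodies and processes hold different sets of messages, and neurons, oligodendrocytes and microglia also send messages into their processes. In these bulk samples, fewer cells of a type and less RNA per cell cannot be told apart.

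The interaction can be written as a difference of the pull-downs (PAP TRAP over cortex TRAP) minus a difference of the inputs (synaptoneurosome input over cortex input), and these share no library. A gene can therefore reach a low interaction because its pull-down level falls toward the fraction, because its input level rises toward the fraction, or through both. Which of the 2 contributed more was tested by the sum of both differences, which was called for 29.6% of all genes. Where the sum was called with the sign of the interaction, the pull-downs contributed more, and where it was called with the opposite sign, the inputs did. Otherwise the source was left as not resolved. Calls are Benjamini-Hochberg adjusted p-values under 0.05 over all genes tested, from the edgeR quasi-likelihood F test.

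Gene counts ranged from 4918113 to 17553985 per library. Transcripts of the mitochondrial chromosome took 44.8% to 50.2% of them in cortex input, 1.03% to 1.28% in cortex TRAP, 83.8% to 91.9% in synaptoneurosome input and 35.6% to 47.6% in PAP TRAP. This left 1423296 to 2476076 counts on nuclear genes in the synaptoneurosome inputs and 4864787 to 7777763 in the other libraries, so the input of the fraction was the shallowest term of the interaction. The 32 astrocyte markers held 1.03% to 1.09% of nuclear counts in cortex input, 10.2% to 13.3% in cortex TRAP and 4.61% to 5.61% in synaptoneurosome input. In PAP TRAP they held 5.67%, 11.1% and 7.27%, and replicate 2 stood apart within its group. Such sums follow their most abundant members. Slc1a2 alone made up most of the astrocyte sum in both input groups and in PAP TRAP, so these shares do not stand for the list as a whole. The 28 neuron markers held 2.50% to 2.76%, 0.296% to 0.433%, 1.67% to 2.30% and 0.894% to 1.36% in the same order of groups, with the lowest PAP TRAP value also in replicate 2. The labels do not say whether the replicates came from separate animals, so p-values measure only the spread between these samples, which may be technical.

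Lists of synaptic, neuronal, large cytoskeletal, myelin and mitochondrially encoded messages held mostly higher calls, and lists of astrocyte, lipid, lysosomal, endoplasmic reticulum and nuclear-encoded respiratory genes held mostly lower ones. Of 13364 genes, 2699 were called in the interaction (20.2%), with 1721 higher (12.9%) and 978 lower (7.32%). Higher means that the pull-down was more enriched, or less depleted, in the fraction than in whole tissue. An unadjusted p under 0.05 was seen for 4273 genes. Of the calls, 63.8% were higher, and this share was 52.3% when the library offsets were corrected for transcript length, with 2251 genes called.

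The pull-downs were the main source of the higher calls. Among the 1721 genes called higher, the pull-downs contributed more for 1137 (66.1% of them, 8.51% of all genes tested), the inputs for 15 (0.872% and 0.112%), and the source was not resolved for 569 (33.1% and 4.26%). Their median difference of the pull-downs was 2.86 and their median difference of the inputs -0.09. Their median enrichment over input was -2.64 in tissue and 0.21 in the fraction. The lower calls were mixed. Among the 978 genes called lower, the pull-downs contributed more for 187 (19.1% of them, 1.4% of all genes tested), the inputs for 138 (14.1% and 1.03%), and the source was not resolved for 653 (66.8% and 4.89%). Their medians were -1.55 for the pull-downs and 1.12 for the inputs. For 514 of them only the pull-down difference was called, as lower in PAP TRAP. For 200 only the input difference was called, as higher in synaptoneurosome input. Both were called in these directions for 148 and neither for 110, while 5 were called higher in both and 1 lower in both. The median enrichment over input of the lower calls was 2.79 in tissue and 0.22 in the fraction. The split of the lower calls depends on scaling and on the genes kept. With library totals of nuclear genes alone, 292 were assigned to the pull-downs and 67 to the inputs. Without mitochondrial genes, 130 were assigned to the pull-downs and 150 to the inputs. The split also depends on single libraries. The 187 became 350 without PAP TRAP replicate 2 and 71 without cortex input replicate 1 or 3. The 978 became 627 without cortex input replicate 3.

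**Figure D1:**
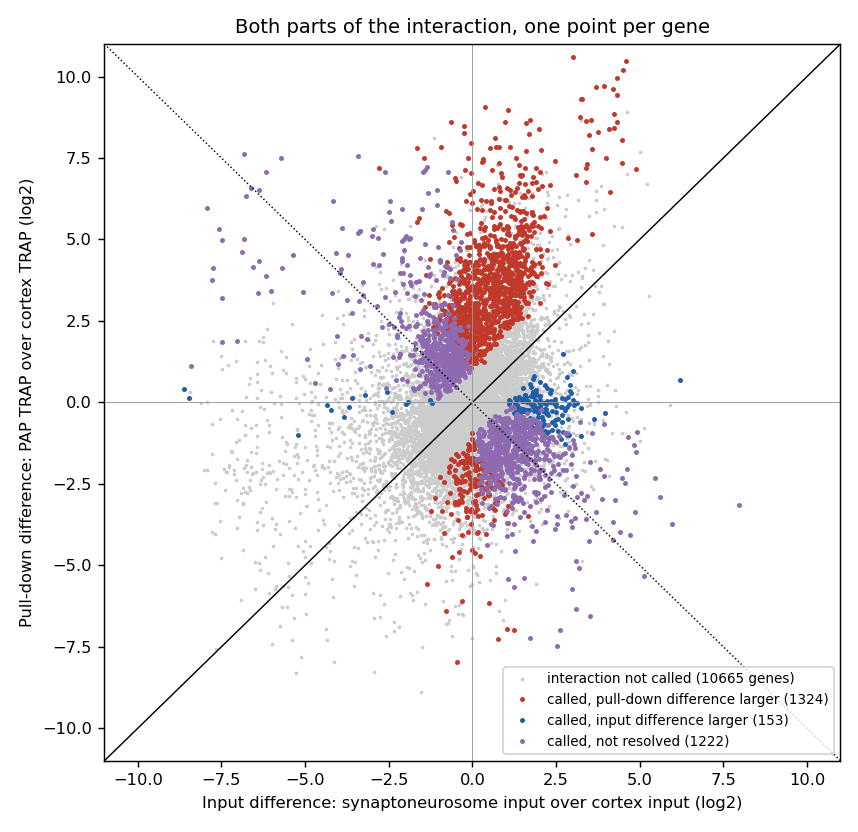
Each point is a gene, with the input difference (synaptoneurosome input over cortex input, log2) on the horizontal axis and the pull-down difference (PAP TRAP over cortex TRAP, log2) on the vertical axis. Genes on the solid diagonal have no interaction, and genes on the dotted line draw equally on both differences. Red genes (1324) lie near the vertical axis, blue genes (153) near the horizontal axis, and the 1222 unresolved calls lie between them.

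The pull-down difference was called for 33.9% of all genes (19.3% higher in PAP TRAP, 14.6% lower) and the input difference for 9.32% (7.26% higher in synaptoneurosome input, 2.07% lower). Of the 608 genes in which both were called in the same direction, 266 were called in the interaction. The remaining ones moved in pull-down and input alike by amounts whose difference did not pass the test. Across genes, the Spearman correlation between both differences was 0.227. It is a description over 13364 genes, which share libraries and are not independent replicates.

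The enrichment over input was called more often, and spread more widely across genes, in whole tissue than in the fraction. It was called for 35.4% of all genes in whole tissue (15.9% enriched, 19.5% depleted) and for 4.53% in the fraction (3% enriched, 1.53% depleted). The SD of the log2 enrichment across genes was 2.12 in tissue and 1.46 in the fraction. The synaptoneurosome inputs had the fewest nuclear counts, which limits the precision of the fraction's enrichment. The part of depth in the unequal share of calls was not tested. The interaction holds the tissue enrichment with a minus sign, so for genes chosen by that enrichment the direction of the interaction is largely fixed by the choice, and the next counts are a description. Of 2127 genes enriched in cortex TRAP, 872 had a lower interaction and 0 a higher one. Their median enrichment was 2.48 in tissue, by which they were chosen, and 0.61 in the fraction. In the fraction, 198 of them were called enriched and 6 depleted. Of 2610 genes depleted in cortex TRAP, 1552 had a higher interaction and 0 a lower one. Their median enrichment was -2.52 in tissue, again the value that chose them, and -0.20 in the fraction, where 144 were called depleted and 95 enriched. The rank correlation between both enrichments across genes was 0.265 (Spearman, a description). The genes called with the tissue pull-down depleted and the fraction pull-down enriched include the dendritic messages Camk2a, Arc and Shank1 to Shank3, and Mbp.

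**Figure D2:**
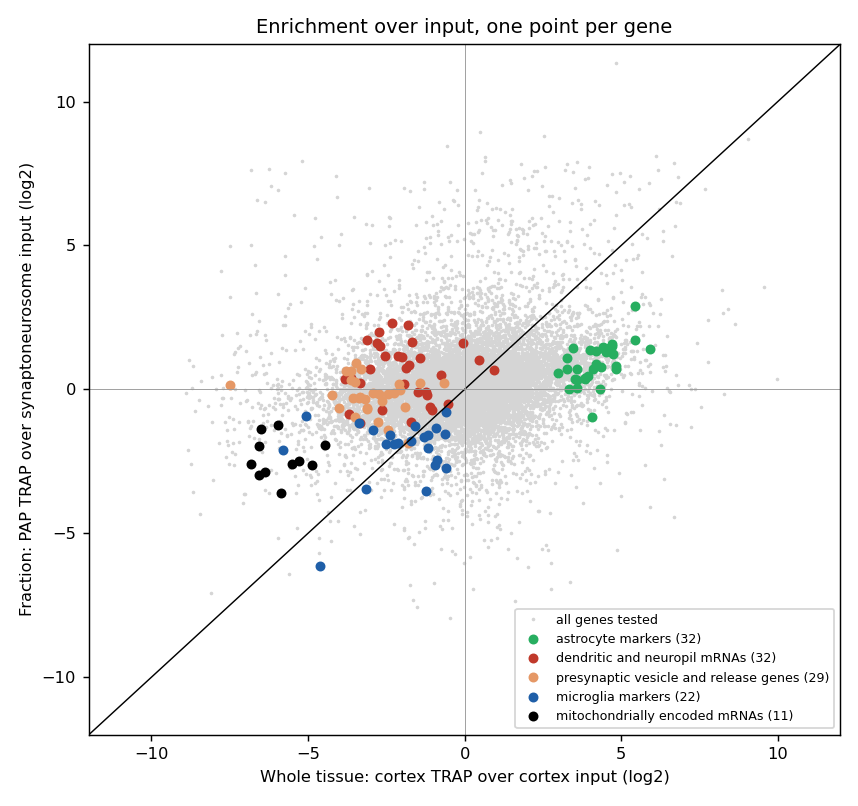
Each point is a gene, with its log2 enrichment in whole tissue on the horizontal axis and in the fraction on the vertical axis. The diagonal marks equal enrichments. The 32 astrocyte markers lie to the right and below the diagonal, dendritic and presynaptic messages lie to the left and above it, mitochondrial messages lie far left, and microglia markers lie around it.

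The gene groups below are read against all genes tested, whose medians were 0.03 for the interaction, -0.28 for the pull-down difference, -0.14 for the input difference, 0.06 for the enrichment in the fraction and 0.05 for that in tissue. All values in log2 units are differences, not levels. Levels are normalized CPM, counts scaled to a common library size, given in the order of replicates 1 to 3.

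**Figure D3:**
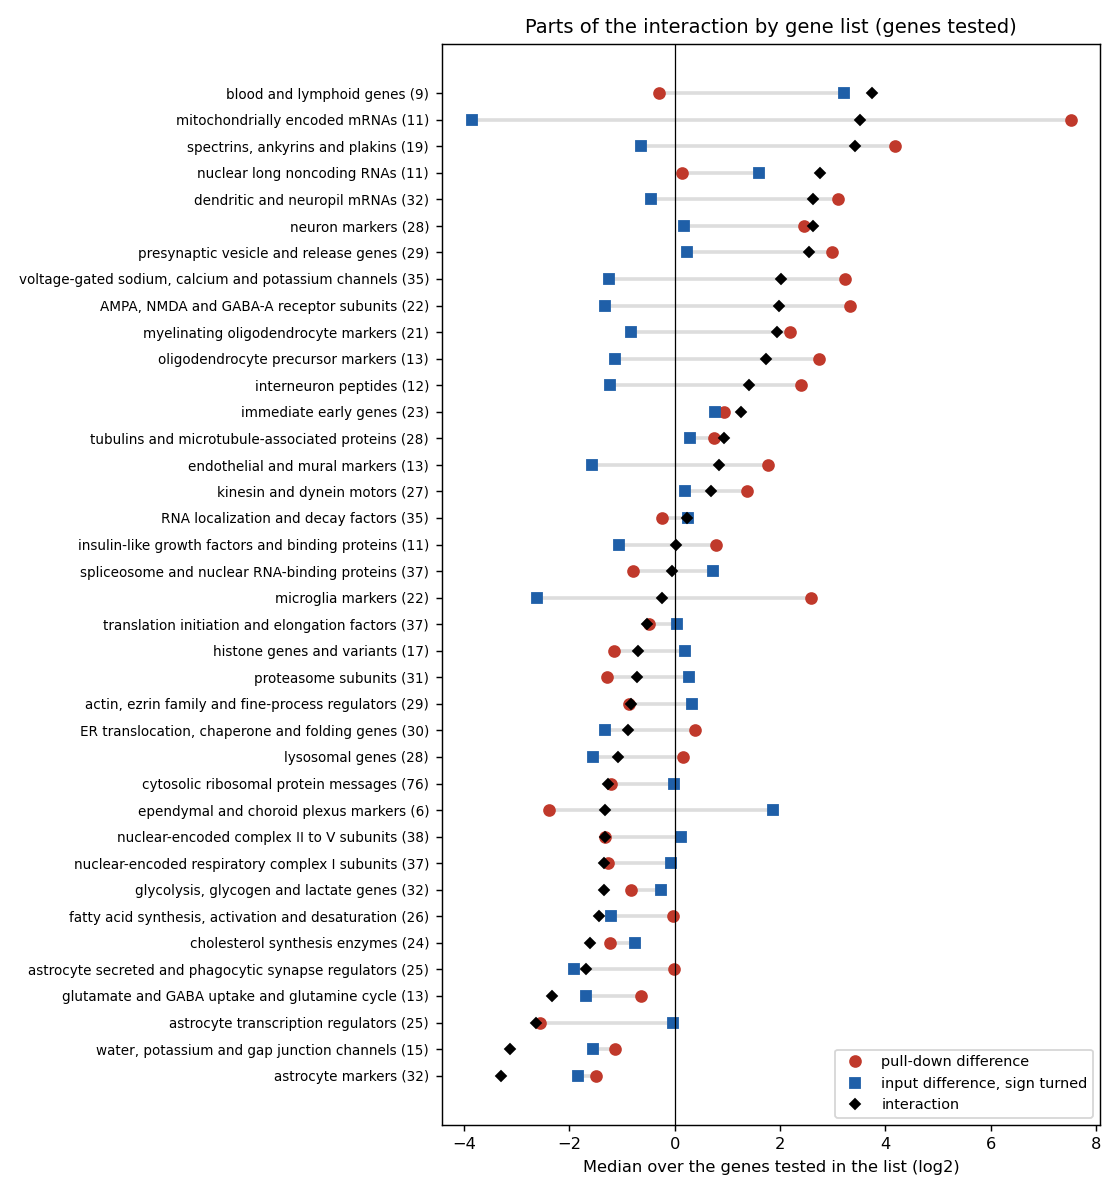
For each gene list (number of genes tested in parentheses), red circles give the median pull-down difference, blue squares the median input difference with its sign turned, and black diamonds the median interaction, all in log2 units. Transcription regulators, neuronal lists and mitochondrial messages have the red circle far from 0, while for secreted synapse regulators, fatty acid genes, lysosomal genes and endoplasmic reticulum genes the blue square lies farther from 0 than the red circle.

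Astrocyte markers were lower in the interaction almost throughout, through both differences. Of 32 tested, 31 were called lower and 0 higher, with a median of -3.29. All 32 were enriched in cortex TRAP (median 4.20), and 12 were enriched in PAP TRAP over the fraction's own input (median 0.84). Between the pull-downs, 28 were lower in PAP TRAP (median -1.50), and between the inputs, 26 were higher in synaptoneurosome input (median 1.83). The inputs contributed more for 7 (Bmpr1b, Ndrg2, Pla2g7, Slc1a2, Slc1a3, Slc4a4 and Ttyh1), the pull-downs for 3 (F3, Gpr37l1 and Sox9), and 21 were not resolved. Slc7a10 was the member not called. Without PAP TRAP replicate 2, the count lower was again 31 and the median -3.57. With nuclear totals alone, 2 were assigned to the inputs and 7 to the pull-downs, so the balance within this list rests on the scaling.

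Acsbg1, an acyl-CoA synthetase of astrocytes, showed both differences at nearly the same size. Its level was 7.75, 6.78 and 8.07 in cortex input, 595, 365 and 409 in cortex TRAP, 35.9, 53.7 and 25.3 in synaptoneurosome input and 62.6, 143 and 97.98 in PAP TRAP. All 3 PAP TRAP libraries lay below all 3 cortex TRAP libraries, and all 3 synaptoneurosome inputs lay above all 3 cortex inputs. The interaction was -4.51 ± 0.47 (SE, n = 3 per group, edgeR adjusted p = 2.13e-06), from -2.18 ± 0.33 in the pull-downs and 2.34 ± 0.34 in the inputs. Gfap, the astrocyte intermediate filament, followed the same course with -1.34 ± 0.29 in the pull-downs and 1.78 ± 0.30 in the inputs, giving an interaction of -3.12 ± 0.42. Aldoc, the brain aldolase of astrocytes, gave -1.63 ± 0.26 and 1.51 ± 0.26. Fam107a, an actin-binding protein, gave -1.81 ± 0.23 and 1.45 ± 0.23. Ndrg2 and Pla2g7 drew more on the inputs, at 2.38 ± 0.26 and 2.76 ± 0.32, with pull-down differences of -0.85 ± 0.25 and -1.27 ± 0.29. Gpr37l1, an orphan receptor of astrocytes, drew more on the pull-downs (-2.87 ± 0.34, against 1.26 ± 0.34 in the inputs), and this assignment was not resolved without cortex input replicate 1 or cortex TRAP replicate 1, or with length-corrected offsets. Aldh1l1, whose promoter drives the tag, had an interaction of -2.02 ± 0.61 (edgeR adjusted p = 0.0244), and its call was lost in 7 of the 12 fits that left out 1 library, with adjusted p up to 0.104.

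Most messages for transmitter uptake were lower in the interaction. Of 13 uptake and glutamine cycle genes, 10 were lower and 1 higher, with medians of -2.32 for the interaction, -0.63 for the pull-downs and 1.68 for the inputs. The inputs contributed more for 4, with Slc1a2, Slc1a3 and Aldh5a1 among them, and the other 6 lower members were not resolved. This source rests on the scaling: the inputs contributed more for 1 member and the pull-downs for 0 with nuclear totals alone, and for 1 and 2 with length-corrected offsets. Slc1a2 encodes the main glutamate transporter of forebrain astrocytes. It stood at 2086, 2399 and 2589.9 in cortex input, 16689, 24678 and 27562 in cortex TRAP, 18111, 18199.8 and 17179.5 in synaptoneurosome input and 20219, 39740.3 and 28242 in PAP TRAP. The pull-down groups overlapped, while each synaptoneurosome input was above every cortex input. Its interaction of -2.56 ± 0.35 (edgeR adjusted p = 3.24e-05) came with 0.36 ± 0.24 in the pull-downs (adjusted p = 0.27) and 2.92 ± 0.26 in the inputs (adjusted p = 1.22e-06).

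Slc1a3, the other astrocyte glutamate transporter, moved in both terms, with -1.08 ± 0.24 in the pull-downs and 2.30 ± 0.25 in the inputs. Its source was not resolved with nuclear totals alone or with length-corrected offsets. Glul, glutamine synthetase, was lower in PAP TRAP (1586, 3445 and 2522) than in cortex TRAP (5788, 5278 and 7047) and higher in synaptoneurosome input (933, 964 and 827) than in cortex input (299.8, 239.7 and 308). Neither pair of groups overlapped, the interaction was -2.95 ± 0.36, and the source was not resolved. Got1, the cytosolic aspartate aminotransferase, was the 1 member called higher (2.08 ± 0.43), with a tissue enrichment of -2.53 ± 0.32 and a fraction enrichment of -0.45 ± 0.30.

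The list of water, potassium and gap junction channels, not all of whose members are channels or pumps, gave a like picture. Of 15 tested, 13 were lower and 0 higher, with medians of -3.13 for the interaction, -1.13 for the pull-downs and 1.54 for the inputs. The inputs contributed more for 5, with Dag1, Kcnj10, Kcnj16 and Slc4a4 among them, and 8 were not resolved. With nuclear totals alone, 3 were assigned to the inputs and 4 to the pull-downs. Kcnj10 encodes the inward rectifier potassium channel of astrocytes. Its pull-down levels were 576, 819 and 759 in cortex TRAP and 492, 964 and 498 in PAP TRAP, and its input levels 44.6, 57.3 and 60.6 in cortex and 401, 395 and 234 in the fraction. The pull-downs overlapped and the inputs did not, and the interaction was -2.80 ± 0.41. Atp1b2, a sodium pump subunit of astrocytes, had a pull-down difference of -1.87 ± 0.24 and an input difference of 1.60 ± 0.24, and was not resolved. Aqp4, the water channel of astrocyte endfeet, had -1.28 ± 0.33 and 2.18 ± 0.34, and Gja1, connexin 43, had -1.59 ± 0.35 and 1.54 ± 0.35, both not resolved.

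Secreted and phagocytic regulators of synapses had the largest median input difference of the 5 astrocyte lists. Of 25 tested, 14 were lower and 1 higher, with medians of -1.67 for the interaction, -0.02 for the pull-downs and 1.91 for the inputs. Of the lower members the inputs contributed more for 7 (Gpc5, Itgav, Ncan, Ptprz1, Sparc, Sparcl1 and Thbs4) and the pull-downs for 0, with 7 not resolved. Sparc and Sparcl1 (hevin) are secreted matrix proteins that act on synapse formation. Sparc was at 67.1, 87.1 and 67.2 in cortex input, 1488, 1356 and 1389 in cortex TRAP, 657, 734 and 543 in synaptoneurosome input and 865, 2144 and 1163 in PAP TRAP. Every synaptoneurosome input exceeded every cortex input, whereas the PAP TRAP libraries fell on both sides of the cortex TRAP libraries. The interaction was -3.15 ± 0.40 (edgeR adjusted p = 1.39e-05), with -0.02 ± 0.27 in the pull-downs and 3.13 ± 0.30 in the inputs. Sparcl1 gave -2.94 ± 0.33, with -0.05 ± 0.23 and 2.89 ± 0.25. Epha4, an ephrin receptor that neurons also make, was the 1 higher member (3.58 ± 0.43), with 4.76 ± 0.35 in the pull-downs.

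Transcription regulators of astrocytes, a list that also holds the mRNA decay factors Zfp36l1 and Zfp36l2, were lower through the pull-downs wherever the source was resolved. Of 25 tested, 14 were lower and 0 higher, with medians of -2.63 for the interaction, -2.57 for the pull-downs and 0.03 for the inputs. The pull-downs contributed more for 11 (Hes5, Hey1, Id2, Id3, Id4, Otx1, Rfx4, Sox2, Sox9, Zfp36l1 and Zfp36l2), the inputs for 0, and Lhx2, Nfia and Sox21 were not resolved. Over the alternative settings and the fits without 1 library, 7 to 14 of them were assigned to the pull-downs and 0 to the inputs. Id3, an inhibitor of basic helix-loop-helix factors, was at 175, 191 and 191 in cortex TRAP and at 9.04, 8.02 and 3.81 in PAP TRAP. Its inputs were at 8.81, 5.92 and 7.09 in cortex and 2.73, 5.67 and 5.79 in the fraction. All 3 PAP TRAP libraries lay far below cortex TRAP and near the inputs, and the interaction of -4.14 ± 0.51 (edgeR adjusted p = 1.11e-05) came with -4.74 ± 0.38 in the pull-downs and -0.60 ± 0.37 in the inputs.

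Sox9, a lineage factor of astrocytes, was at 294, 221 and 269.5 in cortex TRAP against 26.1, 50.8 and 31.9 in PAP TRAP, with inputs at 12.6, 14.2 and 15.8 and 20.1, 19.4 and 19.9. The pull-downs did not overlap, and the interaction was -3.33 ± 0.40 with -2.85 ± 0.29 in the pull-downs. Zfp36l1, which also stood in the list of RNA localization and decay factors, gave -4.17 ± 0.69, with -4.58 ± 0.50 and -0.41 ± 0.50. Mt1, a metallothionein, gave -3.41 ± 0.49 with -2.54 ± 0.35 in the pull-downs, but its source was not resolved without cortex input replicate 1, cortex input replicate 3 or cortex TRAP replicate 3, or with length-corrected offsets. With length-corrected offsets, 13 of the regulators were lower at a median of -2.73, and with nuclear counts thinned to equal depth 15 were lower at -2.77, each time with 11 assigned to the pull-downs. Astrocyte marker shares differed between the pull-downs as well, and their part in these differences was not tested.

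**Figure D4:**
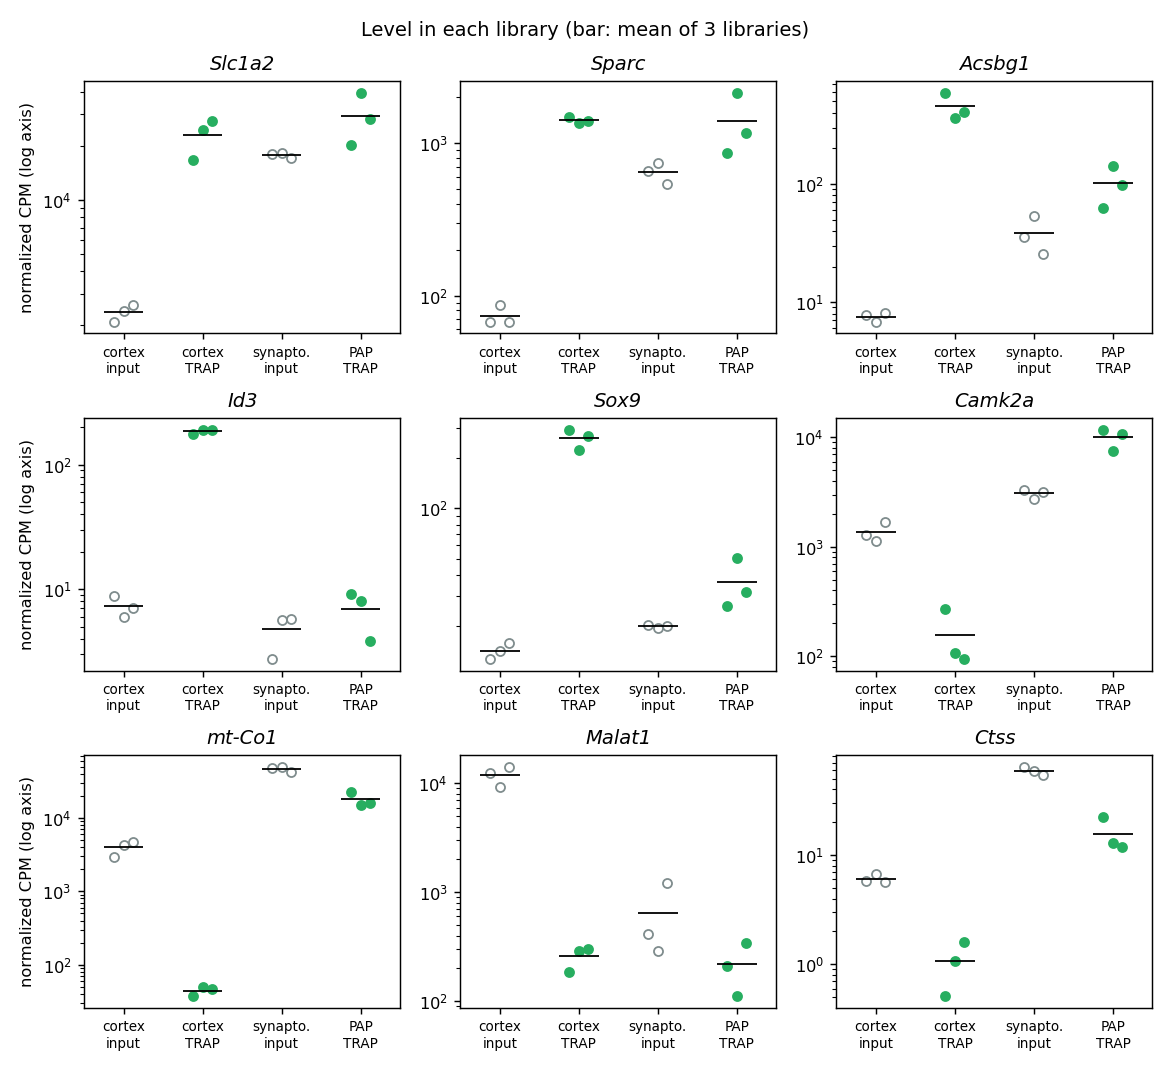
Normalized CPM on a log axis for 9 genes in each of the 12 libraries; open circles are inputs, filled circles pull-downs, and bars the mean of 3 libraries. Slc1a2 and Sparc rise between the inputs at about level pull-downs, Id3 and Sox9 fall between the pull-downs, Acsbg1 does both, Malat1 falls between the inputs, and Camk2a, mt-Co1 and Ctss rise in both, Camk2a and mt-Co1 more between the pull-downs.

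Lipid and energy genes called lower had different sources. For fatty acid synthesis, activation and desaturation, 11 of 26 were lower and 2 higher (Acsl1 and Acsl4), with medians of -1.44 for the interaction, -0.03 for the pull-downs and 1.21 for the inputs. The inputs contributed more for 6 of the lower members: Acsl3, Acsl6, Fads1, Fads2, Scd1 and Scd2. Scd1, a stearoyl-CoA desaturase, had pull-down levels of 692, 745 and 913 and 547, 1036 and 873 and input levels of 36.4, 36.1 and 39.3 and 328, 326 and 254, in each case tissue first. Only the inputs were separate, and the interaction of -2.96 ± 0.35 came with 3.02 ± 0.26 in the inputs. Of 24 cholesterol synthesis enzymes, 10 were lower and 0 higher (median -1.62), and 8 of the 10 were not resolved. Msmo1, a sterol demethylase, gave -2.08 ± 0.29 in the pull-downs and 1.06 ± 0.29 in the inputs. Of 32 glycolysis, glycogen and lactate genes, 12 were lower and 4 higher (median -1.34). The lower ones include Aldoc, and the higher ones include Eno2, the neuronal enolase, at 2.83 ± 0.41, with 1.59 ± 0.29 in the pull-downs and -1.25 ± 0.29 in the inputs.

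Genes of the lysosome and the endoplasmic reticulum drew more on the inputs than on the pull-downs wherever the source of a lower call was resolved, though for lysosomal genes this rests on the scaling. Of 28 lysosomal genes, 11 were lower and 1 higher, with medians of -1.08, 0.15 and 1.55 for the interaction, the pull-downs and the inputs. The inputs contributed more for Ctsb, Ctsd, Lamp2, Laptm4a and Npc1, and 6 were not resolved. With nuclear totals alone, over calls in either direction, 2 were assigned to the inputs and 2 to the pull-downs, against 5 and 1, and without synaptoneurosome input replicate 3 also 2 and 2. Tpp1, a lysosomal peptidase, gave -2.79 ± 0.43 with 1.75 ± 0.31 in the inputs, and Lamp1, a lysosomal membrane protein, gave -2.12 ± 0.33 with 1.45 ± 0.23. Atp6v0a1, a subunit of the proton pump that neurons use for synaptic vesicles too, was the higher member (1.70 ± 0.42), through the pull-downs (3.07 ± 0.32). Of 30 genes of the endoplasmic reticulum for translocation, chaperoning and folding, 8 were lower and 0 higher, and this count was 2 to 5 in each fit without 1 library, other than those without synaptoneurosome input replicate 1 or PAP TRAP replicate 2 or 3. Their input difference was called higher for 16 and lower for 0 (median 1.32), and the pull-down difference higher for 9 (median 0.38). Pdia6, a disulfide isomerase, gave -2.30 ± 0.64 with 0.04 ± 0.45 in the pull-downs and 2.34 ± 0.47 in the inputs, and lost its call without cortex input replicate 3 or synaptoneurosome input replicate 2.

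Of the nuclear-encoded subunits of the respiratory chain, some were lower and none was higher, and most of these calls were lost after correction for transcript length. Of 37 complex I subunits, 11 were lower and 0 higher (median -1.34, with -1.26 in the pull-downs and 0.07 in the inputs). Of 38 subunits of complexes II to V, 18 were lower and 0 higher (median -1.33, with -1.32 and -0.12). The pull-downs contributed more for 4 and 7 of the lower members, the inputs for 0, and 7 and 11 were not resolved. With length-corrected offsets these counts were 1 and 2. Leaving out 1 library gave 3 to 12 for complex I, with 7 or fewer in each fit other than those without synaptoneurosome input replicate 1 or 3 or PAP TRAP replicate 2. It gave 7 to 21 for complexes II to V, with 11 or fewer without cortex input replicate 1 or 3, cortex TRAP replicate 1 or 3, synaptoneurosome input replicate 2 or PAP TRAP replicate 1. Ndufb9 of complex I gave -3.07 ± 0.48, or -2.47 without cortex TRAP replicate 1, and Cox6a1 of complex IV -2.07 ± 0.42, the latter with an adjusted p of 0.188 with length-corrected offsets. Messages of cytosolic ribosomal proteins had a median of -1.27, with 4 of 76 called lower and 0 higher, 0 with length-corrected offsets, 17 by DESeq2 and 0 to 11 without 1 library, with 8 without synaptoneurosome input replicate 3, 11 without PAP TRAP replicate 2 and 2 or fewer in the other such fits except those without cortex TRAP replicate 2 or synaptoneurosome input replicate 1. Rpl41, the shortest of the ribosomal proteins, gave -1.84 ± 0.52 and lost its call in 4 of the fits without 1 library and with length-corrected offsets. Ribosomal protein genes have near-identical copies, so their counts are uncertain. Of 37 translation factors, 3 were lower and 0 higher, with 0 lower without cortex input replicate 1 or 2, and of 31 proteasome subunits, 1 was lower and 0 higher.

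Dendritic and neuropil messages had a higher interaction through the pull-downs. Of 32 tested, 25 were higher and 0 lower, with medians of 2.63 for the interaction, 3.10 for the pull-downs and 0.45 for the inputs. The pull-downs contributed more for 22, the inputs for 0, and 3 were not resolved. Their median enrichment was -1.91 in tissue and 0.70 in the fraction, where 12 were called enriched and 2 depleted. Camk2a, the kinase subunit whose message is a standard example of dendritic localization, was at 1291, 1131 and 1671 in cortex input, 271, 107 and 94.2 in cortex TRAP, 3331, 2736 and 3159 in synaptoneurosome input and 11742, 7554 and 10688 in PAP TRAP. The 4 groups did not overlap, with cortex TRAP lowest and PAP TRAP highest. The interaction was 4.81 ± 0.47 (edgeR adjusted p = 1.48e-06), with 5.99 ± 0.39 in the pull-downs and 1.17 ± 0.32 in the inputs, and it was 5.60 without cortex TRAP replicate 1.

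The Shank scaffolds of the postsynaptic density followed Camk2a. Shank2 was at 136, 163 and 218 in cortex input, 20.7, 25.04 and 29.5 in cortex TRAP, 445, 326 and 282 in synaptoneurosome input and 1368, 921 and 925 in PAP TRAP, and no groups overlapped. Its interaction was 4.39 ± 0.38, against 3.31 ± 0.41 for Shank1 and 4.06 ± 0.44 for Shank3. Cnksr2, another scaffold of the postsynaptic density, had an interaction of 5.26 ± 0.34 and Myo5a, a myosin motor, 4.65 ± 0.30. Their inputs differed by 0.25 ± 0.22 and 0.19 ± 0.20, neither called, while their pull-downs differed by 5.50 ± 0.27 and 4.84 ± 0.24. Map2, the dendritic microtubule-associated protein, gave 2.62 ± 0.31, with 2.71 ± 0.23 in the pull-downs and 0.10 ± 0.21 in the inputs. Arc, an immediate early gene whose message moves into dendrites, gave 3.33 ± 0.54, with a tissue enrichment of -1.69 ± 0.38 and a fraction enrichment of 1.63 ± 0.38.

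Presynaptic genes had as large a shift but did not become enriched over their input. Of 29 tested, 25 were higher and 0 lower, with medians of 2.56 for the interaction, 2.98 for the pull-downs and -0.23 for the inputs. The pull-downs contributed more for 22 and the inputs for 0. The median enrichment was -3.11 in tissue and -0.16 in the fraction, where 0 were called enriched and 2 depleted. Bsn (bassoon), a scaffold of the release site, was at 20.96, 25.3 and 27.5 in cortex TRAP and 1257, 799 and 1010.0 in PAP TRAP, with inputs of 243, 232 and 249.7 in cortex and 587, 527 and 745 in the fraction. PAP TRAP was above all other libraries, cortex TRAP was below them, and the interaction was 4.02 ± 0.34. Pclo (piccolo), its relative, gave 4.06 ± 0.36. Syt1, the calcium sensor of vesicle release, gave 1.65 ± 0.33, with an input difference of 1.33 ± 0.23, and Snap25, a fusion protein, 1.03 ± 0.37, which was not called (edgeR adjusted p = 0.0575, 0.00388 to 0.143 over the alternatives).

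General neuron markers behaved alike in the pull-downs. Of 28 tested, 24 were higher and 0 lower (median 2.63, with 2.45 in the pull-downs and -0.18 in the inputs). The pull-downs contributed more for 17, the inputs for 1 (Snhg11), and 6 were not resolved. Without PAP TRAP replicate 2, 25 were higher with a median of 2.80. Nefl, a neurofilament, was at 13.9, 7.30 and 12.1 in cortex TRAP and 237, 152 and 187 in PAP TRAP, against 194, 226 and 191 in cortex input and 124, 131 and 254 in synaptoneurosome input. PAP TRAP overlapped the inputs and cortex TRAP lay below all of them, and the interaction was 4.37 ± 0.45. Celf4, an RNA-binding protein of neurons, gave 3.98 ± 0.33, Slc17a7, the vesicular glutamate transporter of cortical excitatory neurons, 3.27 ± 0.37, and Gad1, which makes GABA, 3.18 ± 0.45. Of 12 interneuron peptides and related markers, 4 were higher and 0 lower, a count that was 2 without cortex input replicate 2, synaptoneurosome input replicate 1 or 2, or PAP TRAP replicate 1 or 3. The neuron marker share of nuclear counts was higher in PAP TRAP than in cortex TRAP (0.894% to 1.36% against 0.296% to 0.433%), and its part in the interaction was not tested.

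Ion channels and receptors of neurons were mostly higher in the interaction, nearly all of them through the pull-downs. Of 35 voltage-gated sodium, calcium and potassium channels, 24 were higher and 0 lower, with medians of 2.01 for the interaction, 3.24 for the pull-downs and 1.25 for the inputs, and the pull-downs contributed more for 23. The median was 2.88 without cortex TRAP replicate 3, and with length-corrected offsets 18 were higher and 1 lower. Of 22 AMPA, NMDA and GABA-A receptor subunits, 13 were higher, all through the pull-downs, and 2 lower (median 1.99), and with length-corrected offsets 10 were higher and 4 lower (median 1.01). Grin2b, an NMDA receptor subunit of forebrain neurons, gave 3.19 ± 0.33, and with length-corrected offsets 0.75 (adjusted p = 0.0909). The 2 lower members were Grin2c and Gabrg1, subunits that astrocytes make. Grin2c was at 26.8, 22.9 and 23.4 in cortex TRAP and 8.34, 18.6 and 9.17 in PAP TRAP, and at 0.388, 1.13 and 0.306 in cortex input and 3.65, 9.85 and 3.86 in synaptoneurosome input. The pull-downs were separate from each other and so were the inputs, with an interaction of -4.25 ± 0.83 (-5.01 without cortex input replicate 2 and -3.63 without synaptoneurosome input replicate 2), from counts near the floor in cortex input, where 3 counts correspond to 0.166 to 0.199 normalized CPM. Gabrg1 gave -2.32 ± 0.61, with -0.70 ± 0.42 in the pull-downs and 1.62 ± 0.45 in the inputs.

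Large cytoskeletal proteins were among the strongest rises of the pull-downs. Of 19 spectrins, ankyrins and plakins, which link membranes and filaments, 13 were higher and 2 lower, with medians of 3.42 for the interaction, 4.18 for the pull-downs and 0.64 for the inputs. All 13 were assigned to the pull-downs, and 10 of the 19 were enriched over the fraction's input. Dst (dystonin), a plakin, was at 103, 97.98 and 102 in cortex input, 33.4, 18.5 and 21.03 in cortex TRAP, 431, 327 and 302 in synaptoneurosome input and 1391, 1041 and 1509 in PAP TRAP. No groups overlapped, and the interaction was 3.95 ± 0.37. Map1a, a large microtubule-associated protein, gave 4.01 ± 0.36. Of 28 tubulins and microtubule-associated proteins, 11 were higher and 2 lower (median 0.93). Of 27 kinesin and dynein motors, 11 were higher and 0 lower (median 0.70, or 1.35 without cortex TRAP replicate 1). With length-corrected offsets, 5 of these motors were higher and 2 lower (median 0.16). Of 29 actin, ezrin family and fine-process regulators, 2 were higher and 9 lower (median -0.82). Ezr (ezrin), a linker of membrane and actin in astrocyte processes, gave -3.17 ± 0.43, with -0.90 ± 0.30 in the pull-downs and 2.27 ± 0.32 in the inputs, and its source was not resolved with nuclear totals alone or without cortex input replicate 2, synaptoneurosome input replicate 1 or PAP TRAP replicate 3.

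Myelin genes called in the interaction were mostly higher. Of 21 markers of myelinating oligodendrocytes, 10 were higher and 2 lower, with medians of 1.94 for the interaction, 2.19 for the pull-downs and 0.82 for the inputs. The median interaction was 1.04 with 8 higher without PAP TRAP replicate 1, and 2.53 without cortex TRAP replicate 3. Their summed share of nuclear counts was 0.541% to 0.597% in cortex input, 0.335% to 0.368% in cortex TRAP, 0.787% to 0.968% in synaptoneurosome input and 1.03% to 1.26% in PAP TRAP. Mbp, myelin basic protein, whose message is carried into the myelin sheath, was at 249, 338 and 304 in cortex input, 28.9, 75.7 and 39.3 in cortex TRAP, 878, 994 and 654 in synaptoneurosome input and 2508, 2547 and 3433 in PAP TRAP. The groups were separate and the interaction was 4.38 ± 0.43, or 5.01 without cortex TRAP replicate 2. Car2, a carbonic anhydrase that astrocytes also make, was 1 of the 2 lower members (-2.66 ± 0.43), beside Plekhb1. Of 13 markers of oligodendrocyte precursors, 4 were higher and 1 lower, and with length-corrected offsets 1 was higher and 0 lower.

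Microglia markers had few calls in the interaction, with large differences in pull-down and input alike. Of 22 tested, 1 was higher and 0 lower, with a median of -0.25 and members from -2.31 to 4.15. The sign of this median was not stable. It was 0.37 to 0.41 without cortex TRAP replicate 2 or 3 or synaptoneurosome input replicate 1, for example. With length-corrected offsets it was 0.13, and with these and the replicate block 0.47. The pull-down difference was higher for 11 (median 2.59), the input difference for 11 (median 2.60), and neither was lower for any. Ctss (cathepsin S) was at 5.82, 6.71 and 5.69 in cortex input, 0.510, 1.08 and 1.61 in cortex TRAP, 64.4, 58.8 and 54.04 in synaptoneurosome input and 22.4, 12.9 and 11.9 in PAP TRAP. Both pairs of groups were separate, and the interaction was 0.59 ± 0.57, with a 95% interval of -0.60 to 1.78 (edgeR adjusted p = 0.524). Csf1r, the growth factor receptor of microglia, was the member called (2.20 ± 0.50), as its pull-down difference of 5.06 ± 0.41 exceeded its input difference of 2.86 ± 0.36. The microglia share of nuclear counts was 0.0230% to 0.0300% in cortex input, 0.00582% to 0.0112% in cortex TRAP, 0.0894% to 0.203% in synaptoneurosome input and 0.0367% to 0.0567% in PAP TRAP.

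Messages of the mitochondrial chromosome had the largest movement in both terms. Of 11 tested, 8 were higher and 0 lower, all 8 through the pull-downs, with medians of 3.53 for the interaction, 7.52 for the pull-downs and 3.85 for the inputs. All 11 were higher in PAP TRAP than in cortex TRAP and higher in synaptoneurosome input than in cortex input. They were depleted by both pull-downs, with medians of -5.94 in tissue and -2.58 in the fraction. mt-Co1, a subunit of cytochrome oxidase, was at 2939.9, 4302 and 4752 in cortex input, 37.2, 49.4 and 46.01 in cortex TRAP, 48427, 49713 and 42211 in synaptoneurosome input and 22747, 15060.5 and 15948 in PAP TRAP. The groups were separate and the interaction was 5.11 ± 0.34 (edgeR adjusted p = 2.67e-08). mt-Nd1, a subunit of complex I, gave 4.71 ± 0.45. These messages are made and translated inside mitochondria, away from the tagged ribosomes.

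Nuclear long noncoding RNAs held 2 of the 15 genes with a higher interaction through the inputs. Of 11 tested, 5 were higher and 1 lower, with medians of 2.76 for the interaction, 0.15 for the pull-downs and -1.61 for the inputs. Of the 5 higher members the inputs contributed more for Malat1 and Snhg11, the pull-downs for 2, and 1 was not resolved. The median ran from 1.47 with length-corrected offsets to 4.53 without synaptoneurosome input replicate 3. Malat1, a nuclear RNA, was at 12328, 9297 and 14198 in cortex input, 184, 287 and 302 in cortex TRAP, 410.5, 289 and 1228 in synaptoneurosome input and 209, 111 and 343 in PAP TRAP. The pull-downs overlapped, while every synaptoneurosome input lay below every cortex input, with replicate 3 highest among them. The interaction was 3.99 ± 0.63 (edgeR adjusted p = 1.35e-04), with -0.22 ± 0.43 in the pull-downs and -4.21 ± 0.49 in the inputs, and 4.90 without synaptoneurosome input replicate 3. Snhg11, a long noncoding RNA of neurons, gave 3.76 ± 0.46, with 0.15 ± 0.32 and -3.61 ± 0.35, and 4.34 without cortex TRAP replicate 3. Pantr1 was the member called lower (-2.43 ± 0.50, or -3.05 without PAP TRAP replicate 2). The summed share of nuclear counts held by the list was 2.83% to 4.01% in cortex input and 0.0667% to 0.299% in all other libraries. Malat1 alone made up nearly all of it in cortex input. The input difference was called lower for 3 of the 11 members and higher for 0. Of 37 spliceosome and nuclear RNA-binding genes, 1 was higher and 2 lower.

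The remaining lists are given beside the shares over all genes tested, 12.9% called higher and 7.32% called lower. Of 23 immediate early genes, 7 were higher and 0 lower (median 1.26, or 2.03 without cortex TRAP replicate 3), and 6 of the 7 were not resolved. Of 35 RNA localization and decay factors, 7 were higher and 4 lower, and with length-corrected offsets 1 was higher and 5 lower. Of 17 histone genes, 0 were higher and 2 lower. Among 11 insulin-like growth factors and binding proteins, 0 were higher and 4 lower at a median of 0.03. This median was -1.34 without PAP TRAP replicate 1, -0.59 without cortex input replicate 2 and -1.16 with length-corrected offsets. Igf2, a growth factor of meninges and vessels, gave -3.77 ± 0.47, with -3.09 ± 0.35 in the pull-downs, and it was depleted in the fraction (-3.87 ± 0.36) and not in tissue (-0.10 ± 0.31). Of 13 endothelial and mural markers, 0 were higher and 4 lower although their median was 0.83. The lower calls were 2 without any 1 cortex input or PAP TRAP replicate 1 and 1 without cortex TRAP replicate 3. With thinned counts only 6 of these markers were tested, and the median of those was -1.40. Of 6 ependymal and choroid plexus markers, 1 was lower. Of 9 blood and lymphoid genes, 1 was higher.

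Iqsec3, Arhgap33 and Disp2 are among the 10 largest rises taken by the rule for named genes. Iqsec3, an exchange factor of inhibitory synapses, gave 5.86 ± 0.65, with cortex TRAP at 0.736, 1.66 and 5.44 and PAP TRAP at 419, 313 and 491, and it moved to 7.19 without cortex TRAP replicate 3. Arhgap33, a GTPase-activating protein, gave 5.37 ± 0.50, with inputs of 37.4, 24.9 and 30.5 in cortex and 48.01, 38.5 and 46.3 in the fraction, cortex TRAP at 1.98, 4.15 and 4.60 and PAP TRAP at 209.7, 132 and 294. Disp2 gave 5.34 ± 0.49, with 6.72 ± 0.42 in the pull-downs. In all 3 genes PAP TRAP lay above and cortex TRAP below every other library, apart from Disp2, where PAP TRAP replicate 2 lay within the range of the synaptoneurosome inputs.

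The interaction rose with coding length, and the difference between the pull-downs carried this trend. The 12470 protein-coding genes tested were split into 5 classes of nearly equal size by coding length. The median interaction was -0.71, -0.41, -0.04, 0.31 and 0.93 from the shortest to the longest class. The share called higher went from 5.28% to 27.7% and the share called lower from 11.05% to 4.21%. The median pull-down difference went from -1.10 to 0.94 and the median input difference from -0.33 to 0.13. Seen as enrichment over input, the trend was mostly in tissue, where the median went from 0.70 to -0.72. In the fraction the medians stayed between -0.06 and 0.19. Genes called higher through the pull-downs had a median coding length of 2484 bases and those called lower through the pull-downs 783 bases, against 1386 bases over all genes. Genes called lower through the inputs had 1512 bases. The neuronal and cytoskeletal lists above hold many long genes, and the respiratory and ribosomal lists hold short ones. With length-corrected offsets, 23 of 32 dendritic messages, 28 of 29 presynaptic genes, 24 of 28 neuron markers and 10 of 19 spectrins, ankyrins and plakins were higher. In that order, their median interactions were 1.78, 2.38, 2.64 and 2.11, against 2.63, 2.56, 2.63 and 3.42 without the correction. Of the spectrins, ankyrins and plakins, 3 were lower with the correction and 2 without it.

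**Figure D5:**
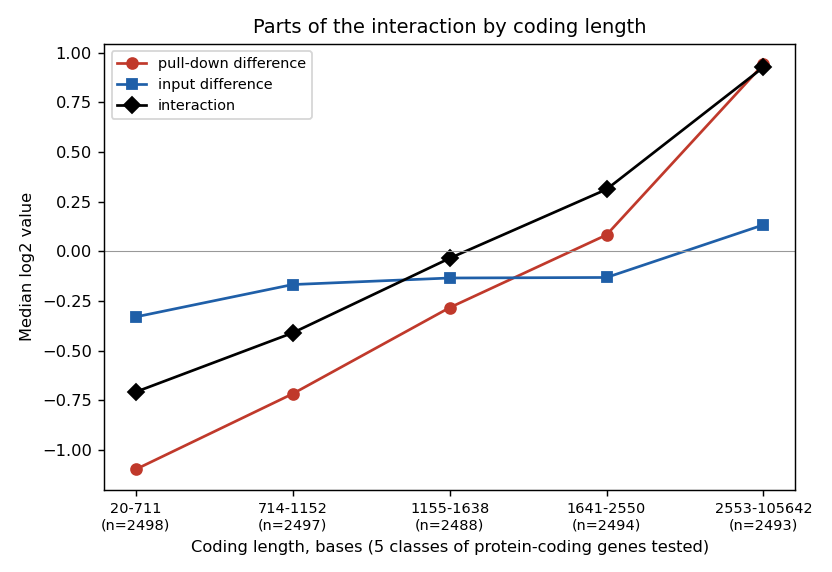
Median log2 pull-down difference (red), input difference (blue) and interaction (black) in 5 classes of protein-coding genes by coding length in bases, with the number of genes under each class. The pull-down difference climbs from -1.10 to 0.94 and the input difference from -0.33 to 0.13.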

How the data were processed

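RNA was sequenced from 12 libraries; groups came from the sample labels. Per the labels' protocols, 2 ng of RNA per sample was copied into cDNA and amplified by SPIA, and libraries were built from 500 ng of it, sheared to about 200 bp. The deposited files hold raw, whole-number counts of reads per gene. The submitters' processing notes name STAR, Bowtie2, HTSeq and Trimmomatic 0.32. None of these comes with its settings, and the annotation or genome build used is not given in the sources used here, nor is the strand setting. Therefore, overlapping, antisense and near-identical genes are uncertain. Counts carry no molecular identifiers, so floors of 3 counts cover counting error only.

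Rows naming no gene (20.3% to 55.5% of all counts) stayed out. GENCODE M21 gave symbols, GC content and coding lengths by identifier. Of 41388 identifiers, 13364 passed edgeR's filterByExpr (minimum count 10, minimum total 15). The edgeR 4.0.16 quasi-likelihood model (R 4.3.3, TMM scaling, factors 0.191 to 2.46) had 1 mean per group over all 12 libraries, and was tested on simulated data. Errors are SE of log2 values. Members, the 38 gene lists and the rule for named genes were chosen with earlier results of these data known. The rule took the 10 largest calls each way above a mean log2 CPM of 3, up to 2 calls per list and direction, 3 genes per source class and a fixed set. Not all are printed, some genes are not reported here, and list members given without values only account for a count. Lists were described by counts and medians, without a test. Replicate numbers were not taken to pair the samples (see the closing section). Alternatives were other scalings, no mitochondrial genes, no filter, DESeq2 1.42.0, a replicate block, GC- and length-corrected offsets, a minimum fold of 1.5, a source rule by size, each library left out, and, chosen after seeing the data, thinned nuclear counts.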

Additional observations from a re-analysis of the deposited data

Results flagged for a closer look

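The enrichment over input differed between the fraction and whole tissue for 2699 genes by the test of the difference itself. In 101 of them both enrichments were called and had opposite directions, with 95 depleted in tissue and enriched in the fraction and 6 the other way round. The interaction of those named above was 4.81 for Camk2a, 3.31 for Shank1, 4.39 for Shank2, 4.06 for Shank3, 5.26 for Cnksr2 and 3.33 for Arc, all of them postsynaptic. It was 4.65 for Myo5a, 3.95 for Dst and 4.01 for Map1a among cytoskeletal genes and motors. It was 3.98 for Celf4, 5.37 for Arhgap33, 5.86 for Iqsec3 and 4.38 for Mbp. Ndufb9 was the named gene that went from enriched in tissue to depleted in the fraction, at -3.07. Without single libraries, Camk2a was at 5.60 (cortex TRAP replicate 1), Mbp at 5.01 (cortex TRAP replicate 2), Iqsec3 at 7.19 (cortex TRAP replicate 3) and Ndufb9 at -2.47 (cortex TRAP replicate 1).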

How the results depend on the processing

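Over the planned scalings, filters, tests and corrections, the interaction called 2190 to 3490 genes and kept most of them: 1880 of the 2251 genes called with length-corrected offsets and 2671 of the 3490 called by DESeq2 were among the 2699. No gene moved from one resolved source to the other in any setting except 1 gene with length-corrected offsets, alone or with the replicate block. The median interaction over all genes went from 0.03 to 0.14 without mitochondrial genes, to 0.34 without a filter, to -0.17 with GC-corrected and to -0.08 with length-corrected offsets. DESeq2 called 1468 genes lower. Genes higher with the inputs contributing more numbered 52 with nuclear totals alone, 24 by DESeq2, 7 with a minimum fold of 1.5 and 59 by size of the share. Genes higher through the pull-downs numbered 754 with length-corrected offsets. Genes lower through the pull-downs numbered 292 with nuclear totals alone, 313 by DESeq2, 287 with GC-corrected offsets, 291 with these and the replicate block, 107 with a minimum fold of 1.5 and 375 by size. Genes lower through the inputs numbered 67 with nuclear totals alone, 90 with a minimum fold of 1.5 and 222 by size. By size, 306 higher and 381 lower genes fell between both sources. The cause of these shifts was not tested, apart from the looser rule by size, which needs no test of the source.

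Leaving out 1 library gave 2161 to 2999 calls, 1407 to 1918 higher and 627 to 1164 lower. The higher calls split into 915 to 1271 through the pull-downs, 6 to 34 through the inputs and 454 to 638 not resolved, and the lower ones into 71 to 350, 109 to 134 and 442 to 701. The 15 genes higher through the inputs were 34 without synaptoneurosome input replicate 3 and 9 or fewer without any cortex input, cortex TRAP replicate 3 or PAP TRAP replicate 1. The 187 lower through the pull-downs moved by over 1.5 times without each library other than cortex TRAP replicate 2 and PAP TRAP replicate 3.

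Replicate numbers were not taken to pair the samples, since the correlation of deviations between same-numbered libraries of different groups was 0.00575 to 0.0804 over 18 pairs and passed 0.1 in 0 of them. All 18 were above 0, however, which is a hint from the data and not from the design. Of the different-numbered pairs, 27 of 36 were below 0, and 12 of 12 libraries had their highest mean correlation with their own number. Deviations within a group sum to 0, so both of these counts partly follow from the 18 positive values and are no separate hint. With the replicate number as a block, 2726 genes were called, 2552 of them shared with the 2699. The synaptoneurosome inputs, with the fewest nuclear counts, limit the precision of the fraction's enrichment. With all libraries thinned to 1423296 nuclear counts, 2651 of 10754 genes were called.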
